A study of Mus musculus with 12 samples.

Results

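The genes of the cell division cycle were followed in liver RNA from male C57BL/6 mice that were wild type (WT) or deficient in Ahnak (KO), the gene of a giant scaffold protein found at the cell membrane and in the cytoplasm. The set of 40 genes holds 14 genes of G1 and S phase, 25 genes of G2 phase and mitosis, and Cdkn1a, an inhibitor of the cycle. A gene was read from a probe set that carried its symbol alone, and from the one with the highest mean signal where there was a choice. That gave values for 38 of the 40 genes, among 22180 genes with a symbol of their own on the arrays: 13 of G1 and S phase (G1/S), 24 of G2 phase and mitosis (G2/M), and Cdkn1a. Cyclin E2 (Ccne2) and cyclin B1 (Ccnb1) had no such probe set and are not described.

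There were 4 groups of 3 mice, with 1 liver per array: WT chow, WT HFD, KO chow and KO HFD. Arrays are numbered 1 to 3 within each group, as in the labels. The diets, chow or one of 60% fat (HFD, for high-fat diet), were given for 8 weeks to groups matched on body weight. The labels do not state the ages, the part of Ahnak that was deleted, or the cells in which it was deleted. All values are log2 signals as deposited, so a difference of 1 is a doubling of the signal. Signals are compared between arrays and not between genes, because probe sets differ in brightness. The exception is a rough guide to background, taken from genes that liver does not transcribe. Differences are given as KO minus WT or HFD minus chow with the standard error (SE) of a limma fit to all 12 arrays, and a gene was called changed when its p, adjusted by Benjamini-Hochberg over all 22180 genes, was under 0.05.

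A cell that divides copies its DNA in S phase and separates the copies in mitosis. Cyclins D and E switch on the E2F factors, which transcribe the genes for DNA replication, and cyclins A and B with Cdk1 then drive the cell into mitosis, while Cdkn1a, a target of p53, blocks the cyclin-dependent kinases. Many G1/S genes are known as targets of E2F through its binding motif. Many G2/M genes carry a cell cycle genes homology region (CHR) and CCAAT boxes, read by the DREAM and MuvB complexes and by NF-Y. Most hepatocytes of an adult liver rest outside the cycle, and they re-enter it after tissue loss or injury. Whole liver also holds macrophages, stellate cells and endothelial cells that can divide, and in such bulk RNA fewer cells of a type and less RNA per cell cannot be told apart.

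RefSeq promoter windows of 300 bases (build GRCm38.p6, 250 before to 50 after the gene's start) were at hand for 32 of the 40 genes, 31 of them measured. They were searched on both strands for the CHR (TTTGAA or TTTAAA), the CCAAT box (CCAAT) and an E2F motif in 4 forms (TTCCCGC in the first, then TTCGCGC, the third form TTGCCGC, and lastly TTGGCGC), whose matches on opposite strands can overlap. A CHR lay in 18 of 20 G2/M windows (90%) and in 4 of 11 G1/S windows (36.4%), against 27.6% of all 32851 RefSeq windows. A CCAAT box lay in 18 of 20 G2/M (90%) and 7 of 11 G1/S windows (63.6%), against 37.4% of all. An E2F motif lay in 3 of 20 G2/M (15%) and 6 of 11 G1/S windows (54.5%), against 9.57% of all. The Cdkn1a window held 0 of the 3 motifs.

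The stretches below are the 110 bases before the start of 8 genes, 5′ to 3′ on the gene's strand, with motif matches in capitals. Ccnb2, Cdc20 and Kif11 are 3 of the 4 G2/M genes with a tested difference of the genotype effect between diets (Mki67 is the other), and Rrm2 is the G1/S gene with one. Cdk1 is the mitotic kinase itself, and Cdca8 is a G2/M gene that was not called. Mcm3 and Mcm6 are replication genes: Mcm6 shows E2F and CCAAT motifs, and Mcm3 CCAAT boxes, its E2F matches lying inside the transcript, outside the stretch shown. They lie at chr9:70421555-70421664 (minus strand, Ccnb2), chr4:118437344-118437453 (minus, Cdc20), chr19:37376272-37376381 (plus, Kif11), chr10:69352913-69353022 (minus, Cdk1), chr4:124936918-124937027 (minus, Cdca8), chr12:24708144-24708253 (plus, Rrm2), chr1:20820313-20820422 (minus, Mcm3) and chr1:128359706-128359815 (minus, Mcm6).
Ccnb2: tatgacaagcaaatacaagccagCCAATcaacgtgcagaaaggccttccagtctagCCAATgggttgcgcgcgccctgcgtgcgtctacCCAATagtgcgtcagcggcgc
Cdc20: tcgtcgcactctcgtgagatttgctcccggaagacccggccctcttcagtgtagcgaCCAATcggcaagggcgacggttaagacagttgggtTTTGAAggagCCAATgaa
Kif11: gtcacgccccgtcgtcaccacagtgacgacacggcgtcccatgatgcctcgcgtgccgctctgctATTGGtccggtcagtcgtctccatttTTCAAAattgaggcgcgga
Cdk1: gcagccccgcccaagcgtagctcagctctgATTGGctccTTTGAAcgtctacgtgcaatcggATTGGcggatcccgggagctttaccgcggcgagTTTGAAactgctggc
Cdca8: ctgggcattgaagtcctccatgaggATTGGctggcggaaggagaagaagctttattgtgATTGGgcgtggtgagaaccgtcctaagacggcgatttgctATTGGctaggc
Rrm2: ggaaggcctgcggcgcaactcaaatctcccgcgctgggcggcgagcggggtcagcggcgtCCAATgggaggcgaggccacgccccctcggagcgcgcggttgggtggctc
Mcm3: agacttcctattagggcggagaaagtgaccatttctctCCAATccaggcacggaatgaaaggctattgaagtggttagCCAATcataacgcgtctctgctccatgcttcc
Mcm6: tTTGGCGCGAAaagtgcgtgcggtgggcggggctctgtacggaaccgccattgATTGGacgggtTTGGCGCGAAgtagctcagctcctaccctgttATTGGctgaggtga

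Ccnb2 shows 3 CCAAT boxes, at -87, -54 and -21 from the start, and its nearest CHR lies at 5, just inside the transcript. Cdc20, Kif11 and Cdk1 show both a CCAAT box, which reads ATTGG on the other strand, and a CHR, the CHR of Cdc20 at -18 and that of Kif11 at -19. Cdca8 shows 3 CCAAT boxes and has its CHR at 14, inside the transcript. Mcm6 shows a pair of E2F stretches, each a match on both strands that overlap. Both CHR and CCAAT were in 9 of 11 G2/M windows of genes that fell in KO on HFD and in 7 of 8 windows of measured G2/M genes that were not called, so these letters did not separate the groups of genes. A match describes the sequence and is no evidence of binding.

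Over the whole series, array medians ran from 5.58 to 5.70 and arrays of a group correlated across genes with r from 0.992 to 0.994. The 3 WT HFD arrays stood apart from the rest: all 3 lay above the other 9 arrays in 7.67% of all genes and below them in 5.12%. The Ahnak probe set was -0.04 ± 0.14 (limma adjusted p = 0.971) on chow and -0.48 ± 0.14 (0.0483) on HFD, where leaving out any of 9 arrays lost the call (p up to 0.173), and since the deleted part is not given it does not check the labels. As a guide to weak signals, 1105 olfactory receptor genes, which liver does not transcribe, had mean signals with a median of 3.49 and a 95th percentile of 5.61. The means of 26 of the 38 genes lay above that percentile and those of 12 below it (Cdc6, Top2a, Birc5, Cdca8, Bub1, Ttk, Kif20a, Kif23, Nusap1, Prc1, Cenpe and Cenpf), so these 12 were read close to background. The hepatocyte marker genes were high in all groups, with a mean log2 signal from 13.22 to 13.31 over the 12 arrays, and 0 of 8 were called in any of the 6 comparisons made.

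**Figure D1:**
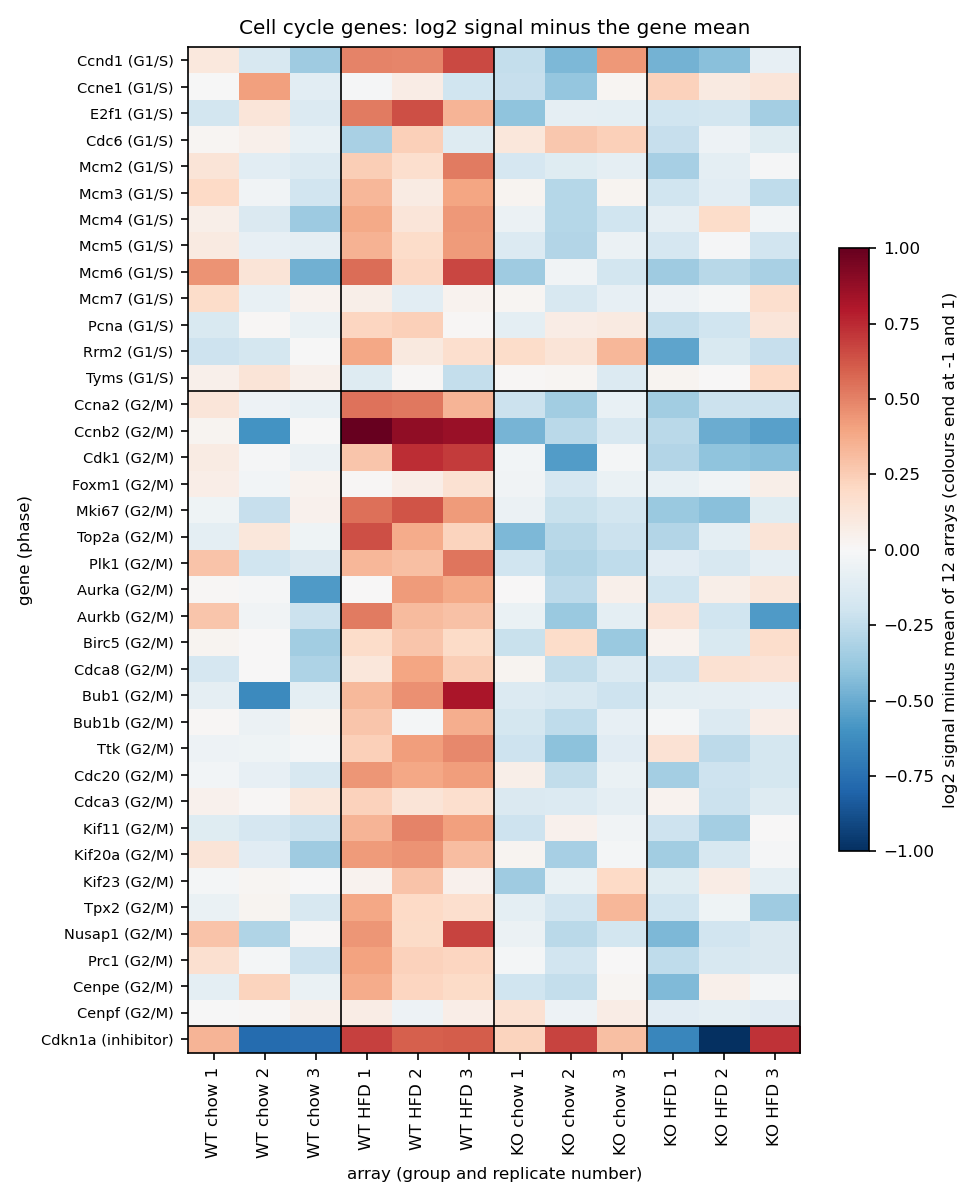
Each row is a gene and each column an array, and the colour gives the log2 signal minus the gene's mean over 12 arrays, with colours ending at -1 and 1; lines separate the phases and the groups. The WT HFD columns were the highest group mean for 33 of the 38 genes.

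Most of the 38 division genes had their highest group mean in WT mice on HFD. WT HFD held the highest of the 4 group means for 33 of 38 genes, against 32.8% of all genes, and all 3 of its arrays lay above the other 9 for 19 of 38, against 7.67% of all genes. This full separation was seen for 15 of 24 G2/M genes and for 4 of 13 G1/S genes (Ccnd1, E2f1, Mcm2 and Mcm5). The mean of the 24 G2/M genes, each taken relative to its own mean, was 0.34 to 0.36 on the WT HFD arrays, -0.12 to 0.03 in WT chow, -0.22 to -0.07 in KO chow and -0.18 to -0.11 in KO HFD. For the 13 G1/S genes it was 0.19 to 0.24 in WT HFD, and between -0.20 and 0.06 on the other arrays. In both sets of genes every WT HFD array lay above the other 9, and the other 3 groups overlapped each other.

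On chow, the genotype made no called difference in any division gene. Of the 38 genes 0 were called higher and 0 lower in KO, where 0.00902% of all genes were called in either direction, and 2 had an unadjusted p under 0.05 against 7.02% of all genes. These were Rrm2 at 0.34 ± 0.12 (limma adjusted p = 0.574) and Top2a at -0.31 ± 0.13 (0.672). The median difference was -0.08 for the 38 genes, -0.09 for the G1/S genes and -0.09 for the G2/M genes, against -0.0034 for all genes. Arrays of KO and WT did not overlap for 2 genes higher (5.95% of all genes) and 6 lower (7.29%) in KO. The 95% limma intervals of the difference reached from -0.42 to 0.01 for Ccna2 and from -0.44 to 0.23 for Ccnb2.

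On HFD, 21 of the 38 genes were lower in KO and 0 were higher, at limma adjusted p under 0.05, while 6.62% of all genes were called lower and 3.89% higher. The falls took in 7 of 13 G1/S genes (Ccnd1, E2f1, Mcm2, Mcm3, Mcm5, Mcm6 and Rrm2) and 14 of 24 G2/M genes, among them cyclins A2 and B2, Cdk1, Mki67, Plk1, Aurkb and Kif11. Their size ran from 0.44 for Mcm5 to 1.36 for Ccnb2 on the log2 scale. The median difference was -0.44 for G1/S genes, -0.49 for G2/M genes and 0.0011 for all genes, and 35 of 38 genes were negative. KO and WT arrays did not overlap for 26 genes lower (15.6% of all genes) and 1 higher (13%), the last being Ccne1. Without single arrays the count was 11 to 21: it was 11 when either WT HFD 3 or KO HFD 2 was left out, and 13 when WT HFD 1 was. The calls of 7 genes (E2f1, Ccna2, Ccnb2, Cdk1, Mki67, Cdc20 and Kif11) held whichever array was left out and under every other setting tried that kept the gene. With every array centred on the median of all probe sets, 23 of the 38 genes were lower, and the split of all genes moved from 862 higher and 1469 lower to 545 and 1937.

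**Figure D2:**
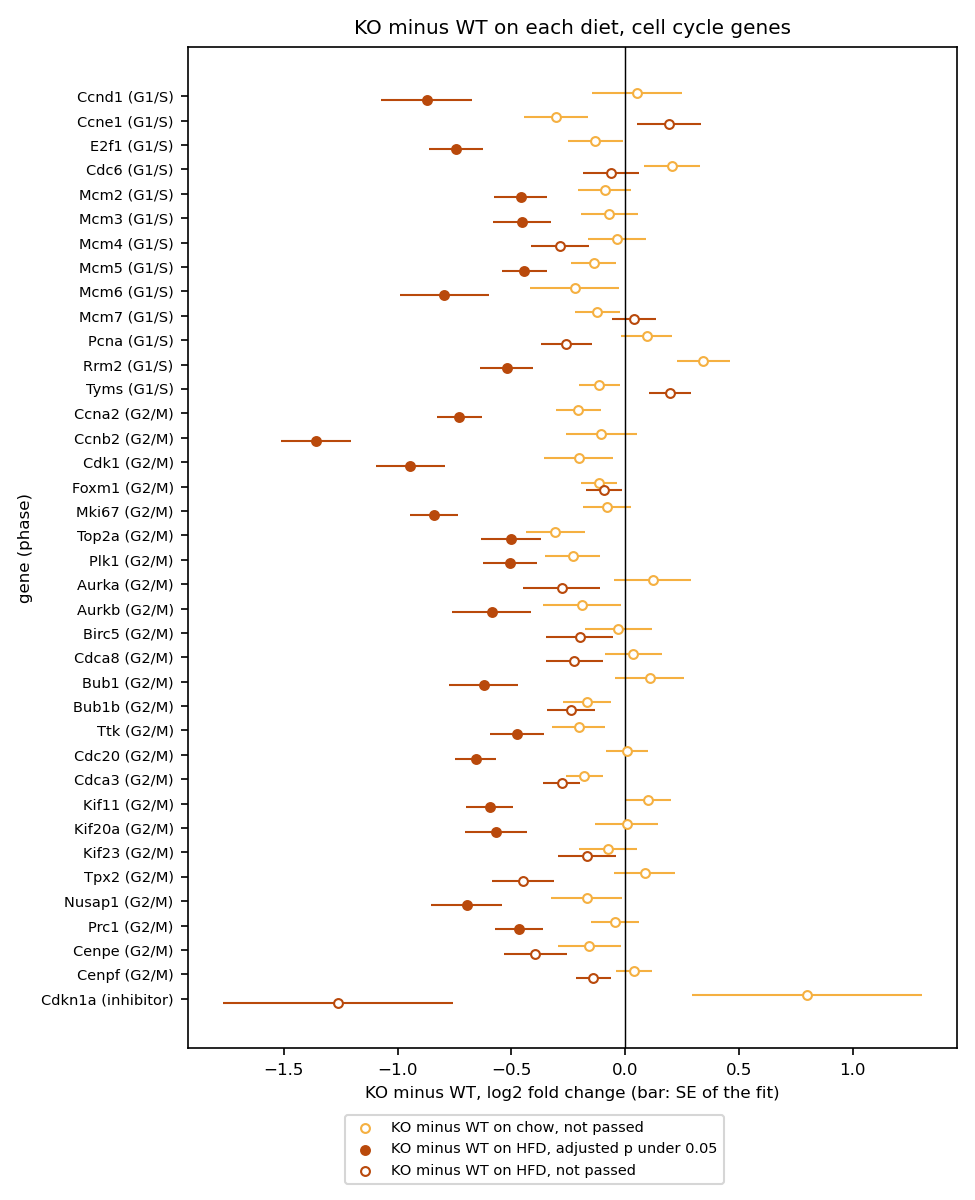
Points give the KO minus WT log2 fold change of each gene on chow (light) and on HFD (dark), with bars for the SE of the fit; filled points passed an adjusted p under 0.05. The 21 filled points all lie on HFD and below 0, and no point on chow is filled.

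The regulators at the start of the cycle fell in part. Ccnd1, cyclin D1, which couples growth signals to the cycle, read 9.11, 8.85 and 8.65 in WT chow, 9.50, 9.49 and 9.66 in WT HFD, 8.77, 8.55 and 9.44 in KO chow and 8.53, 8.59 and 8.92 in KO HFD. Its WT HFD arrays lay above all others, and KO HFD lay within or below the range of both chow groups. The difference was -0.87 ± 0.20 (limma adjusted p = 0.0149) on HFD, lost on omission of WT HFD 3, or KO HFD 1 or 2 (p up to 0.058 with WT HFD 3 left out). E2f1, the factor that transcribes replication genes, read 6.59, 6.89 and 6.64 in WT chow, 7.30, 7.42 and 7.11 in WT HFD, 6.37, 6.68 and 6.68 in KO chow and 6.57, 6.59 and 6.43 in KO HFD. KO chow overlapped WT chow and KO HFD, and the highest KO HFD array (6.590) lay just below the lowest of WT chow (6.594). Every WT HFD array stood above all of these, with -0.74 ± 0.12 (0.00204) for KO minus WT on HFD. Ccne1, cyclin E1, stood apart in direction, at 0.19 ± 0.14 (0.458), and was not called.

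The helicase that opens DNA at replication origins is built from Mcm2 to Mcm7, and 4 of its 6 genes fell in KO on HFD. Mcm5 read 6.58, 6.41 and 6.40 in WT chow, 6.84, 6.68 and 6.92 in WT HFD, 6.36, 6.20 and 6.43 in KO chow and 6.32, 6.48 and 6.30 in KO HFD, so that each WT HFD array lay above the other 9. Its difference was -0.44 ± 0.10 (limma adjusted p = 0.0133), lost on omission of WT HFD 3 (0.059). Mcm6 had the widest gap of the 6, at -0.80 ± 0.20 (0.0224), with 6.79, 6.44 and 6.90 in WT HFD against 5.88, 5.96 and 5.91 in KO HFD. In WT chow, however, Mcm6 ranged from 5.75 to 6.68 and so overlapped both. The Mcm6 call was lost on omission of WT HFD 1 or 3, or KO HFD 1, 2 or 3 (p up to 0.0871 with WT HFD 3 left out). Mcm2 was -0.46 ± 0.12 (0.0263), lost on omission of WT HFD 1 or 3, or KO HFD 1 or 2 (p up to 0.102 with WT HFD 3 left out) and with only the arrays compared (0.0724). Mcm3 was -0.45 ± 0.13 (0.0388), lost on omission of WT chow 2, WT HFD 1 or 3, or KO HFD 1, 2 or 3 (p up to 0.135 with WT HFD 3 left out) and with array weights (0.0578). Mcm4 (-0.29 ± 0.13, 0.193) and Mcm7 (0.04 ± 0.10, 0.871) were not called.

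Of the enzymes and factors that feed DNA synthesis, only Rrm2, the regulated subunit of ribonucleotide reductase, was called. Its arrays read 6.26, 6.29 and 6.46 in WT chow, 6.85, 6.56 and 6.64 in WT HFD, 6.65, 6.59 and 6.80 in KO chow and 5.94, 6.31 and 6.23 in KO HFD. The KO chow arrays were as high as those of WT HFD, and KO HFD was low and overlapped WT chow. KO minus WT was -0.52 ± 0.12 (limma adjusted p = 0.0135) on HFD, lost on omission of WT HFD 1 (0.0605). A second Rrm2 probe set, near background with group means of 3.11 to 3.29, gave -0.17 ± 0.11 (limma adjusted p = 0.37 over all probe sets). Pcna, the sliding clamp of DNA polymerase, was -0.26 ± 0.11 (0.177), Tyms, which makes thymidylate, 0.20 ± 0.09 (0.218), and the origin licensing factor Cdc6 -0.06 ± 0.12 (0.824).

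Ccnb2 and Cdk1 had the largest falls of the 21 genes. Ccnb2, cyclin B2, which drives entry into mitosis, read 7.23, 6.61 and 7.20 in WT chow, 8.23, 8.09 and 8.07 in WT HFD, 6.74, 6.94 and 7.05 in KO chow and 6.94, 6.71 and 6.66 in KO HFD. Its lowest WT HFD array (8.07) lay far above the highest of the other 9 (7.23), and the other 3 groups overlapped. KO minus WT on HFD was -1.36 ± 0.15 (limma adjusted p = 0.000225), a signal 2.56-fold lower, and -0.10 ± 0.15 (0.922) on chow. Cdk1, the kinase that cyclins A and B activate, read 6.79, 6.70 and 6.65 in WT chow, 6.99, 7.45 and 7.41 in WT HFD, 6.68, 6.15 and 6.70 in KO chow and 6.42, 6.31 and 6.29 in KO HFD, with -0.94 ± 0.15 (0.00207) on HFD. Ccna2, cyclin A2, which acts in S phase and G2, read 6.05, 5.87 and 5.85 in WT chow, 6.47, 6.45 and 6.27 in WT HFD, 5.71, 5.58 and 5.85 in KO chow and 5.58, 5.71 and 5.71 in KO HFD, with -0.73 ± 0.10 (0.000742). In both genes every KO HFD array lay below every WT HFD array and within the span of, or below, the chow arrays. Foxm1, the factor that transcribes many mitotic genes, was level across the groups, from 5.95 to 6.27 over 12 arrays, with -0.09 ± 0.08 (0.533).

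Mki67, which encodes the proliferation marker Ki-67, read 6.08, 5.90 and 6.17 in WT chow, 6.68, 6.75 and 6.55 in WT HFD, 6.06, 5.90 and 5.94 in KO chow and 5.75, 5.71 and 6.00 in KO HFD. The 3 WT HFD values were the highest of the 12, and KO minus WT was -0.84 ± 0.11 (limma adjusted p = 0.000469). Top2a, a topoisomerase that untangles DNA before it separates, was -0.50 ± 0.13 (0.0299), lost on omission of WT HFD 1 or 2, or KO HFD 1 or 2 (p up to 0.117 with WT HFD 1 left out) and with only the arrays compared (0.0806). Its mean signal lay below the 95th percentile of olfactory receptor genes. Brighter probe sets that carry the symbols of both Top2a and Taf1d had means of 6.57 and 7.31 in WT HFD, and of 6.53 and 7.39 in KO HFD. They cannot be assigned to Top2a alone and were not used.

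The kinases of mitosis fell unevenly. Plk1, which acts at entry into mitosis, read 6.25, 5.77 and 5.83 in WT chow, 6.30, 6.27 and 6.51 in WT HFD, 5.77, 5.67 and 5.71 in KO chow and 5.86, 5.81 and 5.88 in KO HFD, and 1 WT chow array (6.25) came close to the WT HFD range. Its difference was -0.51 ± 0.12 (limma adjusted p = 0.0185), lost on omission of WT HFD 3, or KO HFD 2 (p up to 0.0776 with WT HFD 3 left out). Aurkb, the kinase of the chromosomal passenger complex, was -0.59 ± 0.17 (0.0496), close to the threshold, lost with only the arrays compared (0.0802) and lost on omission of each array in turn except WT chow 1 and 3, and KO HFD 1 (p up to 0.161 with KO HFD 3 left out). Its partners Birc5, or survivin (-0.20 ± 0.15, 0.462), and Cdca8, or borealin (-0.22 ± 0.13, 0.319), were not called, and neither was Aurka, the kinase of the spindle poles (-0.28 ± 0.17, 0.356).

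Among the genes of the spindle checkpoint, which holds the cell until all chromosomes are attached, Cdc20 was the clearest. It encodes the activator of the anaphase-promoting complex and read 6.10, 6.05 and 5.97 in WT chow, 6.57, 6.52 and 6.55 in WT HFD, 6.19, 5.89 and 6.07 in KO chow and 5.79, 5.92 and 5.96 in KO HFD. Its WT HFD arrays lay close together and above all others, of which the highest read 6.19 in KO chow. KO minus WT was -0.66 ± 0.09 (limma adjusted p = 0.000859) on HFD. Bub1, a checkpoint kinase, read 3.92, 3.37 and 3.91 in WT chow, 4.33, 4.47 and 4.82 in WT HFD, 3.87, 3.85 and 3.80 in KO chow and 3.91, 3.91 and 3.92 in KO HFD, low on the scale of the arrays, with -0.62 ± 0.15 (0.0199), lost on omission of WT HFD 3, or KO HFD 1, 2 or 3 (p up to 0.0791 with WT HFD 3 left out). Ttk, the checkpoint kinase also called Mps1, was -0.48 ± 0.12 (0.0222), lost on omission of WT HFD 2 or 3, or KO HFD 2 or 3 (p up to 0.0905 with KO HFD 2 left out) and with only the arrays compared (0.0656). Like Bub1, Ttk read near background. Bub1b, or BubR1, was -0.24 ± 0.11 (0.196), and Cdca3, a trigger of mitotic entry, -0.28 ± 0.08 (0.0508), just short of the threshold.

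Of the spindle motors and microtubule proteins, Kif11, the motor that pushes the spindle poles apart, read 5.59, 5.54 and 5.49 in WT chow, 6.05, 6.20 and 6.12 in WT HFD, 5.50, 5.75 and 5.67 in KO chow and 5.50, 5.37 and 5.71 in KO HFD. The lowest WT HFD value was 6.05 and the highest of the other 9 was 5.75. Its difference was -0.60 ± 0.10 (limma adjusted p = 0.0029). Kif20a, a motor of cytokinesis, was -0.57 ± 0.14 (0.0205), lost on omission of WT HFD 1 or 2, or KO HFD 1 or 2 (p up to 0.0722 with KO HFD 1 left out). Nusap1, which bundles spindle microtubules, was -0.70 ± 0.16 (0.0135), lost on omission of WT HFD 3, or KO HFD 1 (p up to 0.0604 with WT HFD 3 left out). Prc1, which cross-links the midzone, was -0.47 ± 0.10 (0.0139), lost on omission of WT HFD 1 (0.0616). Kif20a, Nusap1 and Prc1 read near background. Tpx2, an activator of Aurka, was -0.45 ± 0.14 (0.0557), and Cenpe, a kinetochore motor, -0.39 ± 0.14 (0.0948), both without overlap between the arrays but not called. Kif23 (-0.17 ± 0.13, 0.478) and the kinetochore protein Cenpf (-0.14 ± 0.08, 0.317) were not called either.

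**Figure D3:**
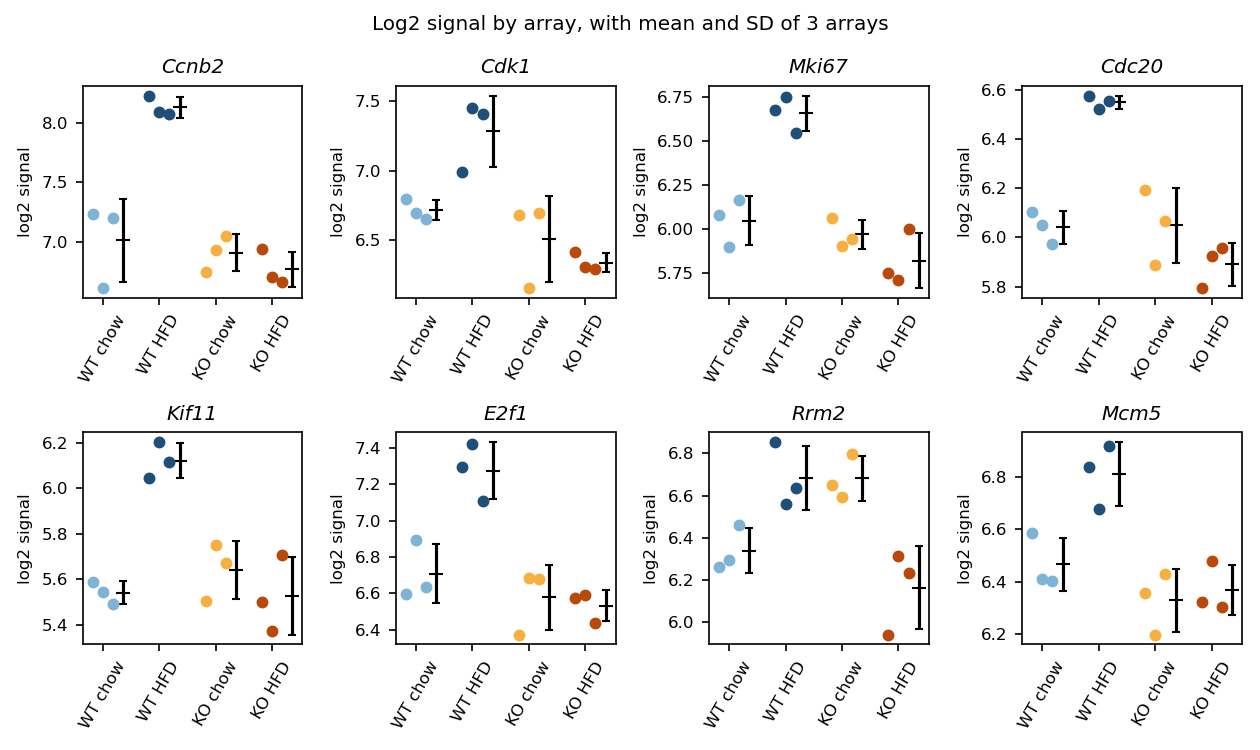
Each panel shows a gene, with a point for each array in the 4 groups and the mean and SD of 3 arrays beside them, on a log2 scale of its own that does not start at 0. In Ccnb2, Cdk1, Mki67, Cdc20, Kif11, E2f1 and Mcm5 the 3 WT HFD points lie above the other 9, and in Rrm2 KO chow is as high as WT HFD.

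In WT livers some of the division genes rose on HFD. In this comparison, 9 of 38 genes were higher on HFD than on chow and 0 were lower (4.02% and 2.94% of all genes, 6.96% in either direction), 8 of them G2/M genes and 1, E2f1, a G1/S gene. This comparison and that of KO with WT on HFD share the WT HFD arrays, and are not independent of each other. Ccnb2 rose by 1.11 ± 0.15 (limma adjusted p = 0.00136), Bub1 by 0.81 ± 0.15 (0.00751), Mki67 by 0.61 ± 0.11 (0.00495), Kif11 by 0.58 ± 0.10 (0.0053) and Cdc20 by 0.51 ± 0.09 (0.00634). The Bub1 call was lost with only the arrays compared (0.0514). The calls of Ccnb2, Mki67, Kif11 and Cdc20 held under every setting that kept the gene and without any single array.

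The other 4 rises were less firm. E2f1 rose by 0.57 ± 0.12 (limma adjusted p = 0.0147), lost on omission of WT chow 1 or 3, or WT HFD 1 or 2 (p up to 0.0649 with WT HFD 2 left out). Ccna2 rose by 0.47 ± 0.10 (0.0138), lost on omission of WT chow 3, or WT HFD 1 or 2 (p up to 0.0598 with WT chow 3 left out). Cdk1 was 0.57 ± 0.15 (0.0444), lost on omission of each array in turn except WT HFD 1, and KO chow 1, 2 and 3 (p up to 0.155 with WT HFD 2 left out), with arrays centred on their median (0.0503) and with only the arrays compared (0.0573). Kif20a was 0.51 ± 0.14 (0.0449), lost on omission of each array in turn except WT chow 1, KO chow 2, and KO HFD 1 and 3 (p up to 0.164 with WT chow 3 left out), with centring (0.0524) and with only the arrays compared (0.0733). The median over 38 genes was 0.39, with 0.35 for G1/S and 0.41 for G2/M genes, against 0.0033 for all genes, and arrays did not overlap for 26 genes higher (14.2% of all genes) and 1 lower (12.2%). Ccnd1, at 0.68 ± 0.20 (limma adjusted p = 0.0615), and Mcm4, at 0.46 ± 0.13 (0.0518), fell short. Without WT chow 3 the count of 9 became 5, and with arrays centred on the median of all probe sets it was 13, the split of all genes moving from 891 higher and 652 lower to 1089 and 457.

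In KO livers the same diet gave no called change in any of the 38 genes, with 0.0857% of all genes called higher and 0.158% lower. At an unadjusted p under 0.05 there were 3: Rrm2 at -0.52 ± 0.12 (limma adjusted p = 0.132), Cdc6 at -0.34 ± 0.12 (0.472) and Ccne1 at 0.35 ± 0.14 (0.525). Ccnb2 was -0.14 ± 0.15 (0.86), Cdk1 -0.17 ± 0.15 (0.82) and Mki67 -0.15 ± 0.11 (0.749). The median was -0.04 over the 38 genes, -0.04 for G1/S and -0.01 for G2/M genes, against 0.0037 for all genes. The interval for Ccnb2, from -0.48 to 0.20, left out a rise of the size seen in WT (1.11).

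The difference in response was tested itself, as the interaction of genotype and diet: the KO minus WT difference on HFD less that on chow. It passed for 5 of 38 genes, all negative, and for 0 in the positive direction (2.1% and 1.43% of all genes, 3.53% in either direction). These were Ccnb2 at -1.25 ± 0.22 (limma adjusted p = 0.00969), Rrm2 at -0.86 ± 0.17 (0.0153), Cdc20 at -0.67 ± 0.13 (0.0166), Mki67 at -0.76 ± 0.15 (0.0171) and Kif11 at -0.70 ± 0.14 (0.0211). In Ccnb2, Cdc20, Mki67 and Kif11 the high group was WT HFD alone, whereas in Rrm2 it was both WT HFD and KO chow. The Kif11 call was lost on omission of WT chow 3, WT HFD 2, KO chow 2 or 3, or KO HFD 2 (p up to 0.0606 with KO chow 2 left out), and the other 4 held without any single array. The other probe set of Rrm2 gave -0.17 ± 0.15 (0.617). For E2f1 (-0.61 ± 0.17, 0.0744), Ccna2 (-0.52 ± 0.14, 0.0652), Cdk1 (-0.74 ± 0.22, 0.0899) and Bub1 (-0.73 ± 0.21, 0.0881) a difference of the genotype effect between diets was not shown. The median was -0.38 over the 38 genes and -0.0028 over all genes. With arrays centred on the median of all probe sets 7 genes passed, and all genes split into 221 higher and 623 lower in place of 318 and 465.

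Averaged over both diets, 12 of 38 genes were lower in KO and 0 higher (3.36% and 1.45% of all genes, 4.81% in either direction), 2 of them G1/S genes. Ccnb2 was -0.73 ± 0.11 (limma adjusted p = 0.00313), Cdk1 -0.58 ± 0.11 (0.0104), Ccna2 -0.47 ± 0.07 (0.00313), Mki67 -0.46 ± 0.07 (0.00526), E2f1 -0.44 ± 0.08 (0.0122) and Cdc20 -0.33 ± 0.06 (0.0139). These 6 held without any single array. On chow alone 0 of the 38 genes were called, with Cdc20 at 0.01 ± 0.09 and Mki67 at -0.08 ± 0.11. For Ccnb2, Mki67 and Cdc20, whose interaction passed, the average therefore describes neither diet. The calls of Mcm5, Top2a, Plk1, Ttk, Cdca3 and Nusap1 (-0.43 to -0.23) were each lost on omission of any of 7 to 11 single arrays, with adjusted p of up to 0.106, and those of Cdca3 and Nusap1 also with arrays centred on their median. The count was 6 without KO chow 1, 6 without KO chow 2, and 7 without WT HFD 1, WT HFD 3 or KO HFD 2.

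Cdkn1a, which encodes the kinase inhibitor p21, showed no called difference in any comparison. Its arrays read 11.47, 10.36 and 10.37 in WT chow, 11.82, 11.73 and 11.74 in WT HFD, 11.35, 11.81 and 11.44 in KO chow and 10.48, 9.17 and 11.86 in KO HFD. WT HFD was high and tight (11.76 ± 0.05, SD, n = 3), and KO HFD spread over the whole range (10.50 ± 1.34), with 1 array as high as WT HFD and 1 the lowest of the 12. KO minus WT was -1.26 ± 0.51 (limma adjusted p = 0.147) on HFD and 0.80 ± 0.51 (0.799) on chow, and the interaction was -2.06 ± 0.72 (0.149). The 95% intervals were wide, from -2.36 to -0.16 on HFD and from -0.30 to 1.90 on chow.

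Other p53 target genes, of which 15 of 18 listed were measured, gave 5 falls and 0 rises in KO on HFD, against 6.62% and 3.89% of all genes. Ccng1, cyclin G1, a strongly p53-dependent gene, read 10.39, 10.25 and 10.22 in WT chow, 11.51, 11.37 and 11.31 in WT HFD, 10.29, 10.38 and 10.25 in KO chow and 10.22, 10.31 and 10.15 in KO HFD. The lowest WT HFD array (11.31) stood well above the highest of the other 9 (10.39). KO minus WT was -1.17 ± 0.09 (limma adjusted p = 1.03e-05), HFD minus chow in WT was 1.11 ± 0.09 (2.16e-05), and the interaction was -1.19 ± 0.12 (0.000345). Eda2r, a death receptor, and Phlda3, an inhibitor of Akt, were likewise highest on the 3 WT HFD arrays, at -1.10 ± 0.11 (8.17e-05) and -0.95 ± 0.11 (0.000213) on HFD, with 1.07 ± 0.11 (0.000153) and 0.80 ± 0.11 (0.00113) for the diet in WT. Their interactions were -1.23 ± 0.15 (0.00116) and -0.84 ± 0.15 (0.0115). The group means of Eda2r, 4.14 to 5.24, lay below the 95th percentile of olfactory receptor genes. Aen, a p53-induced nuclease, was -0.48 ± 0.11 (0.0128) on HFD. Trp53inp1, named after its value was seen, was -0.80 ± 0.22 (0.0405), lost on omission of WT chow 2, WT HFD 1, 2 or 3, KO chow 3, or KO HFD 2 or 3 (p up to 0.152 with KO HFD 2 left out) and with trend and robust settings (0.0531). Mdm2, the ligase that limits p53 and is itself a target, was -0.27 ± 0.13 (0.23). The median of the 15 was -0.24 on HFD. In WT 4 of 15 rose on HFD and 0 fell (4.02% and 2.94% of all genes), and in KO 0 of 15 were called (0.0857% higher and 0.158% lower of all genes).

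**Figure D4:**
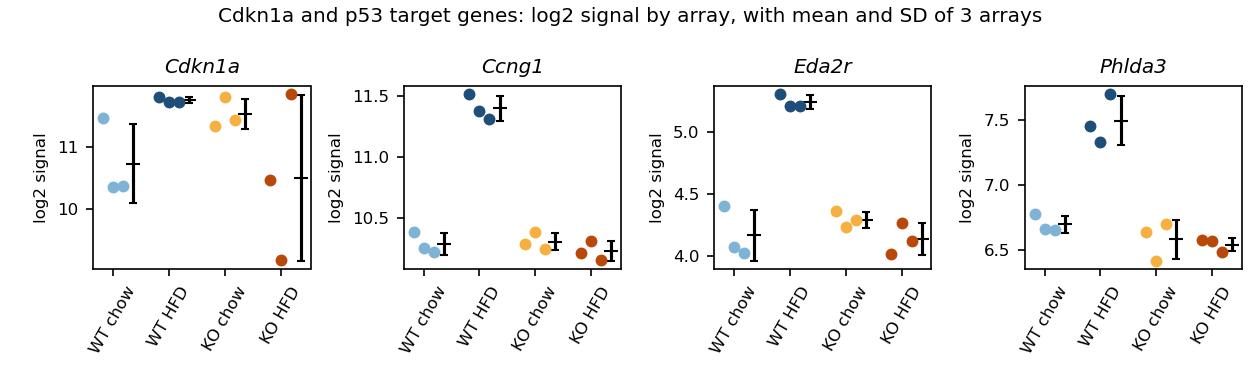
Panels show Cdkn1a and the p53 target genes Ccng1, Eda2r and Phlda3, with a point for each array and the mean and SD of 3 arrays, each on its own log2 scale that does not start at 0. In Ccng1, Eda2r and Phlda3 the 3 WT HFD points lie above the other 9, while the KO HFD points of Cdkn1a run from 9.17 to 11.86.

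Further genes of the cycle were read from lists of genes outside the 40. Of 42 measured G2/M genes, 14 fell in KO on HFD and 0 rose (6.62% and 3.89% of all genes), with a median of -0.31, and 7 rose on HFD in WT and 0 fell (4.02% and 2.94%). Mad2l1, the checkpoint protein Mad2, read 6.94, 6.69 and 6.71 in WT chow, 7.58, 7.73 and 7.88 in WT HFD, 6.62, 6.54 and 6.59 in KO chow and 6.51, 6.53 and 6.79 in KO HFD, with WT HFD above all other arrays. It was -1.12 ± 0.11 (limma adjusted p = 8.17e-05) for KO minus WT on HFD, 0.95 ± 0.11 (0.000426) for the diet in WT and -0.93 ± 0.16 (0.0079) for the interaction. Ckap2, a spindle protein, was -0.91 ± 0.12 (0.000667), Racgap1, of cytokinesis, -0.62 ± 0.09 (0.00111), and Spc24, of the kinetochore, -0.74 ± 0.13 (0.00417). The group means of Ckap2, 4.59 to 5.51, lay below the 95th percentile of olfactory receptor genes. The interaction passed for 3 of the 42 (2.1% of all genes were called negative), Mad2l1, Ckap2 (-0.87 ± 0.17, 0.0176) and Spc24 (-0.81 ± 0.19, 0.0392), the last lost on omission of each array in turn except WT chow 2 (p up to 0.0944 with WT HFD 3 left out).

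Of 34 further G1/S genes, 3 fell and 2 rose in KO on HFD (6.62% and 3.89% of all genes), shares near those of all genes, with a median of -0.11. Gins2 (-0.47 ± 0.10, limma adjusted p = 0.0099) and Cdc45 (-0.50 ± 0.11, 0.0111), which complete the replicative helicase, and Dbf4 (-0.48 ± 0.12, 0.0203), which activates its kinase, were lower. The Dbf4 call was lost on omission of WT HFD 1 or 3, or KO HFD 1 or 2 (p up to 0.0791 with WT HFD 3 left out). Group means of Dbf4 (5.40 to 5.90) and Cdc45 (5.47 to 5.97) lay around the 95th percentile of olfactory receptor genes. The repressor E2f8 (0.65 ± 0.17, 0.0265) and the licensing factor Cdt1 (0.45 ± 0.12, 0.0363) were higher. E2f8 was lost on omission of WT HFD 1, 2 or 3, or KO HFD 1, 2 or 3 (p up to 0.0787 with KO HFD 3 left out), and Cdt1 on omission of WT HFD 1, 2 or 3, or KO HFD 2 or 3 (p up to 0.137 with KO HFD 2 left out), with only the arrays compared (0.0637) and with centring on all probe sets (0.0803). Cdt1 fell on HFD in WT, at -0.52 ± 0.12 (0.0268), lost on omission of WT chow 1 or 3, or WT HFD 2 or 3 (p up to 0.109 with WT HFD 2 left out) and with only the arrays compared (0.0552), while Chek1 and Cdk6 rose. Chek1, a checkpoint kinase, was 0.45 ± 0.11 (0.0289), lost on omission of WT chow 2 or 3, or WT HFD 2 or 3 (p up to 0.117 with WT HFD 2 left out) and with only the arrays compared (0.064). Its group means, 5.14 to 5.59, lay below the 95th percentile of olfactory receptor genes. Cdk6, a partner of cyclin D, was 0.31 ± 0.08 (0.0305), lost on omission of WT chow 1, 2 or 3, or WT HFD 1, 2 or 3 (p up to 0.0936 with WT HFD 1 left out) and with only the arrays compared (0.0729). The interaction passed for Cdt1 alone among the 34, at 0.76 ± 0.18 (0.0352), against 1.43% of all genes called positive and 3.53% in either direction. This call was lost on omission of each array in turn except WT chow 2, WT HFD 1, KO chow 1, and KO HFD 1 (p up to 0.0894 with KO chow 2 left out) and with centring on all probe sets (0.0604). In all, 3 of these 34 G1/S genes fell on HFD where 7 of the 13 described above did, and a difference between these shares was not tested.

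Of 10 measured CDK inhibitors, pocket proteins and Wee1-type kinases, 0 rose and 2 fell in KO on HFD, against 3.89% and 6.62% of all genes. Rbl1, the pocket protein p107, itself a target of E2F, was -0.59 ± 0.13 (limma adjusted p = 0.011). Wee1, which holds Cdk1 inactive and is also under control of the circadian clock, was -1.01 ± 0.25 (0.0241), lost on omission of WT HFD 1, 2 or 3, or KO HFD 2 or 3 (p up to 0.0804 with KO HFD 2 left out). Cdkn1b, or p27, was 0.07 ± 0.10 (0.74), and Rb1 -0.00 ± 0.09 (0.989).

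Some markers of other cells moved with the same groups. Of 9 markers of recruited and lipid-associated macrophages 5 were lower and 0 higher in KO on HFD (6.62% and 3.89% of all genes, as for the lists that follow). On HFD in WT 6 were higher and 1, Cd9, was lower (4.02% and 2.94% of all genes). Their mean log2 signal was 6.49 to 6.62 in WT chow, 7.16 to 7.52 in WT HFD, 6.51 to 6.59 in KO chow and 6.59 to 6.75 in KO HFD. Mmp12 (-1.73 ± 0.13, limma adjusted p = 1.39e-05), Gpnmb (-1.41 ± 0.21, 0.00146) and Trem2 (-0.79 ± 0.16, 0.00789) were among the falls. Only Cd9 of the 9 had a positive difference, not called. Its means were 7.43 in WT HFD and 7.77 in KO HFD, without overlap of the arrays. Of 9 stellate cell and fibroblast markers 3 were lower in KO on HFD, Col3a1, Col1a1 and Lrat, and the mean signal was 8.90 to 9.18 in WT HFD against 8.40 to 8.76 on the other 9 arrays. Of 7 Kupffer cell markers and of 9 neutrophil markers 0 were called in any of the comparisons. Of 12 lymphocyte markers 1 was higher in KO on HFD (Cd4), of 7 endothelial markers 2 were lower (Cdh5 and Lyve1), of 5 bile duct markers 0 were called, and of 3 measured erythroid markers 1 was lower (Klf1). Of the 7 endothelial markers 2 had a positive difference, not called, among them Kdr, with means of 9.23 in WT HFD and 9.57 in KO HFD. The Lyve1 call was lost on omission of WT HFD 1, 2 or 3, or KO HFD 1, 2 or 3 (p up to 0.109 with WT HFD 2 left out) and with trend and robust settings (0.0762). The hepatocyte markers, with means of 13.26 to 13.29 in WT HFD and 13.24 to 13.31 in KO HFD, did not move with the groups. The part of macrophages and stellate cells in the results on the division genes was not tested.

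Clock genes moved too. The circadian clock gates the cycle in regenerating liver, and the time of day at which livers were taken is not given in the labels. Of 9 clock genes of the Per and Rev-erb phase 4 were lower and 0 higher in KO on HFD, against 6.62% and 3.89% of all genes. The falls were Ciart (-2.89 ± 0.32, limma adjusted p = 0.000178), Dbp (-1.19 ± 0.26, 0.0125), Tef (-0.70 ± 0.15, 0.0118) and Hlf (-0.59 ± 0.13, 0.0146). The Per and Rev-erb genes themselves were not called. Of the 9 genes 2 had a positive difference. The Rev-erb gene Nr1d1 had means of 10.38 in WT HFD and 10.74 in KO HFD, without overlap of the arrays. Tef was lost with the mean of its probe sets (0.231), and Hlf on omission of WT HFD 2, or KO HFD 2 or 3 (p up to 0.0634 with KO HFD 2 left out). Of 5 genes of the opposite phase 2 were higher and 0 lower, against 3.89% and 6.62% of all genes. These were Clock (0.49 ± 0.09, limma adjusted p = 0.00473) and Arntl (1.08 ± 0.29, 0.032). Arntl was lost on omission of WT HFD 1, 2 or 3, or KO HFD 1, 2 or 3 (p up to 0.105 with WT HFD 2 left out) and with trend and robust settings (0.0529). Relative to each gene's mean, the 9 genes stood at 0.40 to 0.59 in WT HFD, -0.54 to 0.29 in WT chow, -0.32 to -0.10 in KO chow and -0.50 to 0.10 in KO HFD. The part of the clock in the division genes was not tested.

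**Figure D5:**
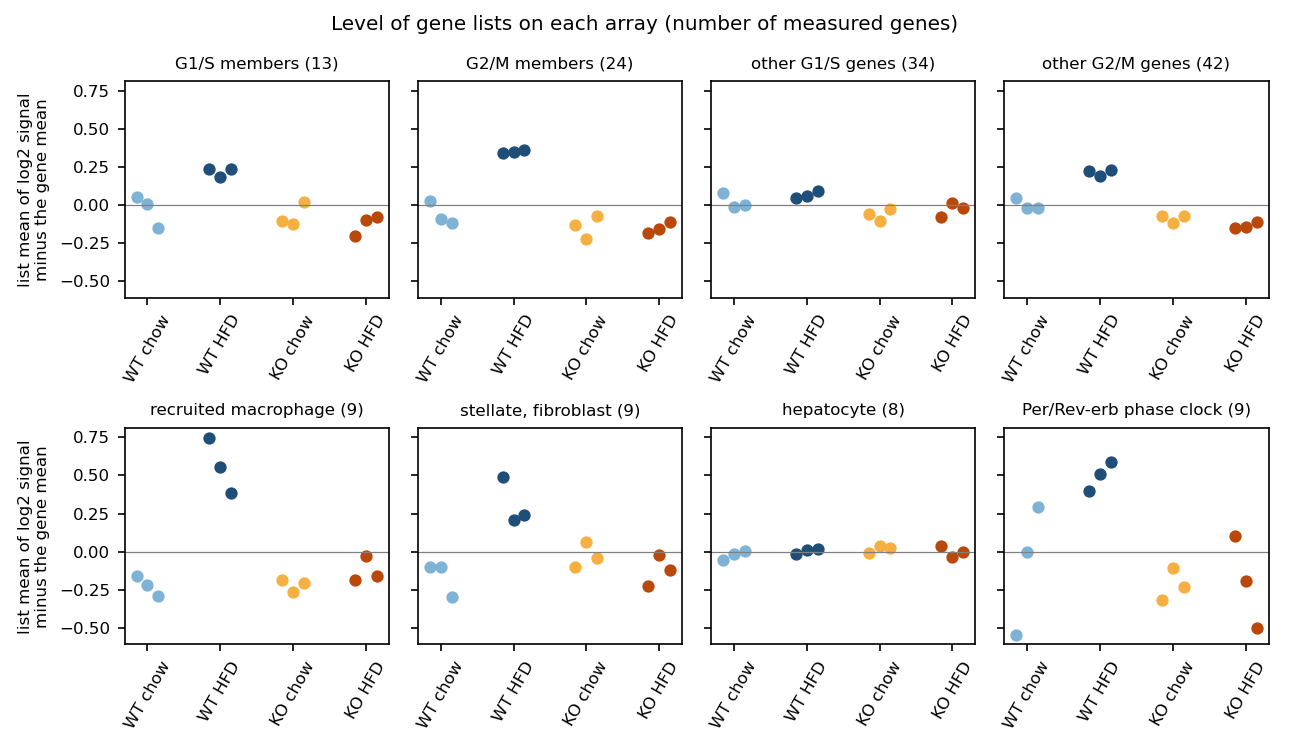
Each panel gives, for each array, the mean over a list of genes of the log2 signal minus the gene's mean over 12 arrays, with the number of measured genes in brackets. WT HFD lies above the other 9 arrays in the panels of G1/S and G2/M genes, of further G2/M genes, of recruited macrophages, of stellate cells and of clock genes of the Per and Rev-erb phase, but not in the panels of further G1/S genes and hepatocyte markers.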

How the data were processed

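Total RNA of 12 livers was hybridised to 1 array each. The values are log2 signals of 41345 probe sets as deposited by the authors, for which the submitters' processing notes name oligo, with its version and normalization method not given in the sources used here. Of the probe sets 23521 carried 1 symbol in the array annotation, 1814 several and 16010 no name here, and the 23521 gave 22180 genes, each read from its brightest probe set. In R 4.3.3, limma 3.58.1 fitted the 4 groups together (lmFit and eBayes, 8 residual degrees of freedom), and p-values were adjusted by Benjamini-Hochberg over all 22180 genes, with calls at an adjusted p under 0.05. The scripts were tested on simulated data. The labels describe the 3 arrays of a group as biological replicates, and their number limits the precision.

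The genes and lists were chosen with earlier results of these data known. All 40 genes could be named, and of each other list up to 4 genes with the smallest p in a comparison, besides cell cycle inhibitors, clock genes and cell type markers beside a result. Trp53inp1 and Dbf4 were outside the rule and named after their values were seen. Alternatives were the normalization, centring, moderation, array weights, the probe set rule, a filter on dim genes, the arrays fitted, a replicate block and each array left out. Centring on the median of all probe sets was added after seeing the data. Arrays of different groups that shared a number did not deviate together, so the numbers were not taken as pairs. Promoter windows came from RefSeq (GRCm38.p6).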

Additional observations from a re-analysis of the deposited data

Results flagged for a closer look

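The effect of the genotype differed between the diets, by the interaction in limma with adjusted p under 0.05, in 5 of the 38 genes. The KO minus WT difference on HFD less that on chow was -1.25 for Ccnb2, -0.86 for Rrm2, -0.67 for Cdc20, -0.76 for Mki67 and -0.70 for Kif11. In Ccnb2, Cdc20, Mki67 and Kif11 all 3 WT HFD arrays lay above the other 9. In Rrm2 KO chow was as high as WT HFD, and a second, dimmer probe set did not show the difference at the threshold. The causes were not tested.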

How the results depend on the processing

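In all settings run, 0 values of the 38 genes with a called difference reversed. Over the 12 fits that each left out 1 array, the count of genes lower in KO on HFD ranged from 11 to 21, and of genes higher on HFD in WT from 5 to 10. The count of genes with a negative interaction ranged from 4 to 6, and of genes lower in KO in the average over both diets from 6 to 10. Testing only genes above the median signal, which kept 15 of the 38, gave 9 lower in KO on HFD, 1 lower on HFD in KO (Rrm2, -0.52, adjusted p = 0.049) and 7 lower in the average over both diets. The filter itself removed most of the 38 genes. Arrays with the same replicate number did not deviate together (correlations from -0.064 to 0.08), and with the replicate number as a block the counts were 20 on HFD, 7 for the diet in WT, 5 for the interaction and 9 over both diets. The block lost the calls of Top2a on HFD and of Cdk1 (adjusted p = 0.0728) and Kif20a (0.073) for the diet in WT. Under the other settings the counts were 17 to 23, 7 to 13, 5 to 7 and 10 to 13. The cause of these shifts was not tested. The number of arrays, and weak signals for 12 genes, limit what could be detected.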
